A study of Mus musculus with 8 samples.

Results

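The genes described here encode the nuclear subunits of the mitochondrial oxidative phosphorylation machinery, measured in hematopoietic stem cells (HSCs) of mice made anemic with phenylhydrazine (PHZ). Members were chosen by symbol: names that start with Ndufa, Ndufb, Ndufc, Ndufs, Ndufv, Uqcr, Cox4 to Cox8 or Atp5, plus Sdha, Sdhb, Sdhc, Sdhd, Cyc1 and Cycs, without the assembly factors named Ndufaf. Of 15142 genes listed in all 3 deposited tables, 86 carried such a name and 81 reached a mean of at least 1 FPKM (fragments per kilobase of transcript and library size, a level corrected for gene length). These 81 members comprise 37 genes of complex I, 4 of complex II, 9 of complex III, 13 of complex IV, 17 of complex V and Cycs, which encodes cytochrome c. The name rule also took in Ndufs5-ps, a transcribed pseudogene of complex I, so that 36 of the 37 complex I members are protein coding.

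All cells came from wild-type C57BL/6 mice and were sorted as Lin- Sca-1+ c-Kit+ CD150+ cells with low or no CD48. The cells fell into 3 groups. Control BM HSCs (n = 3 libraries) were sorted from the bone marrow of mice that the labels give as treated with PBS and the study's text as untreated. PHZ BM HSCs (n = 3) and PHZ SP HSCs (n = 2) were sorted from the marrow and the spleen of mice given PHZ at 60 mg/kg into the peritoneum on 2 days, and were taken on day 3 after the last injection. PHZ destroys red blood cells and so raises the demand for new ones. The study's methods describe young adult mice of both sexes and do not give the number of mice behind a library, nor whether marrow and spleen libraries came from the same mice. If libraries of a group share mice, their spread is partly technical. No library of spleen HSCs from untreated mice was analysed here, so the spleen and the treatment cannot be told apart in the comparison of PHZ SP HSCs with control BM HSCs. The columns of the marrow tables bear the name WBM, while the sample titles say BM HSC.

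Oxidative phosphorylation takes place in the inner mitochondrial membrane. Complex I accepts electrons from NADH and complex II from succinate. Both hand them to ubiquinone, from which complex III passes them through cytochrome c to complex IV, where oxygen is reduced. Complexes I, III and IV pump protons, and complex V, the ATP synthase, uses the gradient to make ATP. Resting HSCs in the marrow are known for relying on glycolysis and for keeping mitochondrial respiration low, while cycling and differentiating progenitors respire more. The remaining subunits are encoded by mitochondrial DNA. Those 13 genes were not analysed here.

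The libraries held 8216167 to 13199736 reads over genes of all 3 tables, worked back from the FPKM values, and a single transcript, the ribosomal RNA precursor Rn45s, took 43.3% to 48.6% of them. The most deeply read libraries were replicate 3 of the control BM HSCs and replicate 3 of the PHZ BM HSCs. On log2(FPKM + 1), libraries of the same group correlated with r of 0.903 to 0.976 across genes, which are not independent replicates. The highest of these values was that of PHZ BM HSC replicates 1 and 2. The 7 HSC markers examined (Procr, Slamf1, Kit, Ly6a, Mecom, Hlf and Gata2) were listed in every group, with a summed level of 317 to 503 FPKM per library.

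Promoters of oxidative phosphorylation genes are known to bind a small set of transcription factors, among them NRF1, the ETS family factor NRF2 (GABP), YY1 and the estrogen-related receptors. The windows of RefSeq (GRCm38.p6), from 250 bases before to 50 bases after a gene's start, were available for 66 of the 81 members. They are given to show how often 4 such strings occur among the members. The letters GCATGCGC (NRF1) occurred on either strand in 11 of the 66 member windows (16.7%), against 5.76% of the 9108 tested genes with a window and 2.8% of all 27025 windows. AAGATGGC (YY1) occurred in 9 members (13.6%), against 5.09% of tested genes and 2.88% of all. AAGGTCA (estrogen-related receptors) occurred in 7 members (10.6%), against 3.18% and 4.66%. CCGGAAG (ETS) occurred in 16 members (24.2%), against 19.9% and 9.12%. In all, 34 of 66 members (51.5%) held at least 1 of the 4 strings, against 30.4% of tested genes and 18% of all windows. The strings differ in length and so in how often they occur by composition, and matches on the NRF1 palindrome overlap on the 2 strands. All 9 members with the YY1 letters held them only at or after the start, whereas 9 of the 11 with the NRF1 letters held them wholly before it.

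The promoters of 4 members whose values are given below are given from 250 bases before the start up to the base before it, 5′ to 3′ in the gene's direction, with the matched letters in capitals. Ndufa6 (chr15:82354292-82354541, minus strand) and Sdhb (chr4:140961021-140961270, plus strand) hold the NRF1 letters, which begin at positions -83 and -54 from the start. Cox6b1 (chr7:30626115-30626364, minus strand) and Uqcrh (chr4:116075071-116075320, minus strand) hold the reverse complement of the ETS letters, at positions -28 and -10.
Ndufa6: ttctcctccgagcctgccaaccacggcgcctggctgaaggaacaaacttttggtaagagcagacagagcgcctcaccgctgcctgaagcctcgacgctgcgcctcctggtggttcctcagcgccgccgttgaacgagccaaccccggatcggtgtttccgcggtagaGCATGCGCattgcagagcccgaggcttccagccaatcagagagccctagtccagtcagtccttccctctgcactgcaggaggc
Sdhb: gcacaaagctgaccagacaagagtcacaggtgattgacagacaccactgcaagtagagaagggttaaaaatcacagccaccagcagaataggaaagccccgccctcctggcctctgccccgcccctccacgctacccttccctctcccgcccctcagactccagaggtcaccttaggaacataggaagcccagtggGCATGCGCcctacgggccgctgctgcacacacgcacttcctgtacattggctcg
Cox6b1: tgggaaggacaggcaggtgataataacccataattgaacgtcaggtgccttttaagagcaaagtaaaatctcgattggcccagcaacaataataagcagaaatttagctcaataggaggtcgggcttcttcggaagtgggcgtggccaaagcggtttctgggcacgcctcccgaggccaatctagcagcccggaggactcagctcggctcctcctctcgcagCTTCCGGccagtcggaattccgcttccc
Uqcrh: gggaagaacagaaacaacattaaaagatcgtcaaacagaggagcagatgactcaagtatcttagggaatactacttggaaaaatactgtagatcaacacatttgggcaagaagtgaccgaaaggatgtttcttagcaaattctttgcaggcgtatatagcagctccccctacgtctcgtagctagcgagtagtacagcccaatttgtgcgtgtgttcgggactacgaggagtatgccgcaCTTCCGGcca
Of these 4 genes, Ndufa6 and Uqcrh had higher levels, and Sdhb and Cox6b1 lower levels, in all PHZ BM HSC libraries than in all control libraries. The whole Sdhb window also holds the ETS letters, at or after the start. A string is a match of letters and not a binding site.

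The subunit genes were expressed at high levels in every group. The median member had a mean of 57.1 FPKM over the 8 libraries, against 5.004 FPKM for the median of 11347 genes tested, and 78 of 81 members lay above the latter. Levels differed widely among subunits that are assembled in fixed ratios. The highest was Cox8a (394 FPKM), a small complex IV subunit, followed in its complex by Cox6b1 (247 FPKM) and Cox4i1 (239 FPKM). In complex V the catalytic F1 subunits led, with Atp5a1 at 207, Atp5b at 191 and Atp5c1 at 152 FPKM. Uqcrh (184 FPKM), Uqcr10 (100 FPKM) and Uqcr11 (87.7 FPKM) led complex III, and Ndufa2 (178 FPKM), Ndufb9 (169 FPKM) and Ndufa4 (121 FPKM) led the complex I names.

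At the other end, 7 members had means under 10 FPKM. They were Ndufb2 (3.86 FPKM), Ndufab1, Cycs, Atp5l, Ndufb4, Cox4i2 and the pseudogene. Some of these low values concern genes with near-identical copies. RefSeq names pseudogenes after 10 of the members, among them Cycs, Atp5l, Atp5k, Uqcrh, Cox5b and Cox7c, and how the authors' counting split reads between copies is not given in the sources used here. Ndufs5 itself averaged 0.974 FPKM, just outside the limit of 1, while its pseudogene averaged 6.84 FPKM, so the level of that subunit is uncertain. Also outside were Cox7a1 (0.733 FPKM), Ndufb4c (0.225), Cox7b2 (0.146) and Cox6a2 (0.132), and nothing lay between 1 and the 3.86 FPKM of Ndufb2.

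Where a subunit exists in alternative forms, the broadly expressed form was the higher. Cox4i1 ranged from 207 to 271 FPKM over the libraries, whereas Cox4i2, known as the form of lung and of low oxygen, ranged from 1.26 to 9.82 FPKM on 9 to 100 reads. Cox6b1 (206 to 309 FPKM) stood above the testis form Cox6b2 (17.5 to 32.7 FPKM) in every library. Cox6a1 ranged from 117 to 175 FPKM, and the heart and muscle form Cox6a2 reached at most 7 reads. Cox7a2 (99.3 to 143 FPKM) and Cox7a2l (99.3 to 162 FPKM) had overlapping ranges, and the muscle form Cox7a1 was at 0 to 3.63 FPKM. Among the 3 genes for the same c-ring protein of complex V, Atp5g3 (38.1 to 60.3 FPKM) exceeded Atp5g2 (15.3 to 23.6 FPKM), which exceeded Atp5g1 (9.75 to 17.4 FPKM), in all 8 libraries. Cox8b was not listed in all 3 tables, and Ndufa4l2 was not analysed here.

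Summed over all members, the level was 5755 to 6332 FPKM in control BM HSCs (5967 ± 318, SD, n = 3). PHZ BM HSC replicates 1, 2 and 3 gave 5125, 5229 and 6399 FPKM (5584 ± 707), and the PHZ SP HSC libraries 6171 and 5701 FPKM (5936 ± 332, n = 2). On this scale replicates 1 and 2 of the PHZ BM HSCs lay below, and replicate 3 above, every other library. As a share of all FPKM without Rn45s, the members made up 3.07%, 3.17% and 3.43% in the controls, 2.75%, 2.75% and 3.11% in PHZ BM HSCs and 3.13% and 2.96% in PHZ SP HSCs. Replicates 1 and 2 were again the lowest, whereas replicate 3 lay within the range of the controls.

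**Figure D1:**
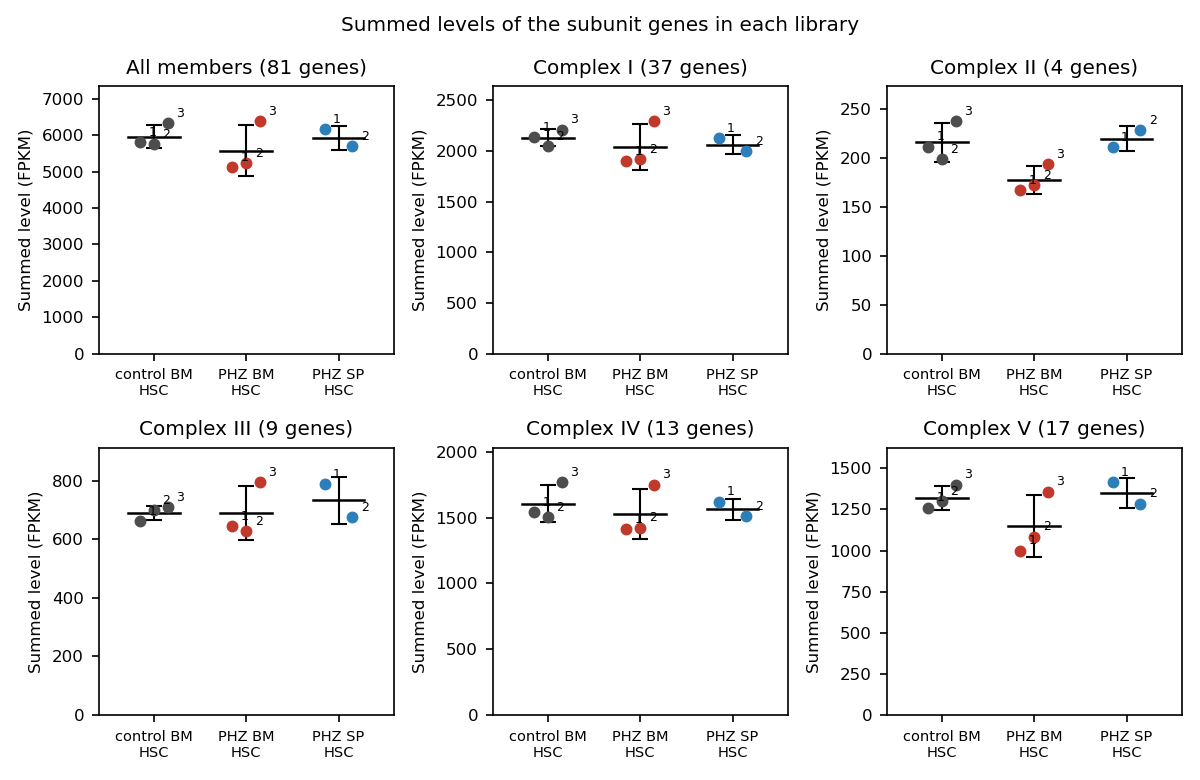
Summed FPKM (vertical axes, from 0) of all members and of complexes I to V in each library; points are libraries with their replicate numbers, and bars give the group mean ± SD. PHZ BM HSC replicates 1 and 2 lie below all other libraries for all members together, at 5125 and 5229 FPKM, and replicate 3 above them, at 6399 FPKM.

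The same split ran through the complexes. For complex V the sums were 1260, 1300 and 1400 FPKM in the controls and 999.5, 1085 and 1358 FPKM in PHZ BM HSCs, against 1414 and 1285 FPKM in PHZ SP HSCs. Complex I gave 2133, 2048 and 2211 FPKM in the controls and 1900, 1918 and 2296 FPKM in PHZ BM HSCs. Complex II was the 1 complex of 5 whose summed FPKM separated the marrow groups, with 211.7, 199 and 237.9 FPKM in the controls and 166.9, 172.5 and 193.9 FPKM in PHZ BM HSCs. The PHZ SP HSC libraries, at 210.7 and 228.6 FPKM, lay within the range of the controls. For complexes III and IV, the control and PHZ BM HSC ranges overlapped (663 to 709 and 627 to 795 FPKM; 1505 to 1768 and 1412 to 1751 FPKM). Taken as shares of all FPKM without Rn45s, complexes I and V separated the marrow groups as well as complex II. Complex I made up 1.127%, 1.128% and 1.199% in the controls and 1.019%, 1.008% and 1.115% in PHZ BM HSCs, and complex V 0.665%, 0.716% and 0.759% against 0.536%, 0.570% and 0.659%.

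Counting members rather than summing them gave the same order. In PHZ BM HSC replicates 1 and 2, 46 and 42 of the 81 members were below all 3 control libraries (56.8% and 51.9%, against 24.7% and 25.8% of all genes tested). In replicate 3 only 13 members were below (16.0%, against 25.2%) and 30 were above the control range (37.0%, against 27.5%). The PHZ SP HSC libraries had 13 and 22 members below (16.0% and 27.2%, against 28.6% and 25.8% of all genes tested) and 18 and 14 above (22.2% and 17.3%, against 29.6% and 27.3%). The median member differed from the control mean by -0.25, -0.23 and 0.14 in the 3 PHZ BM HSC libraries and by 0.02 and -0.03 in the spleen libraries on the log2(FPKM + 1) scale. Of the control libraries, replicate 3 was the highest, at 0.12. In both marrow groups, then, the members were highest in the library with the most reads. The part of read depth in this was not tested.

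**Figure D2:**
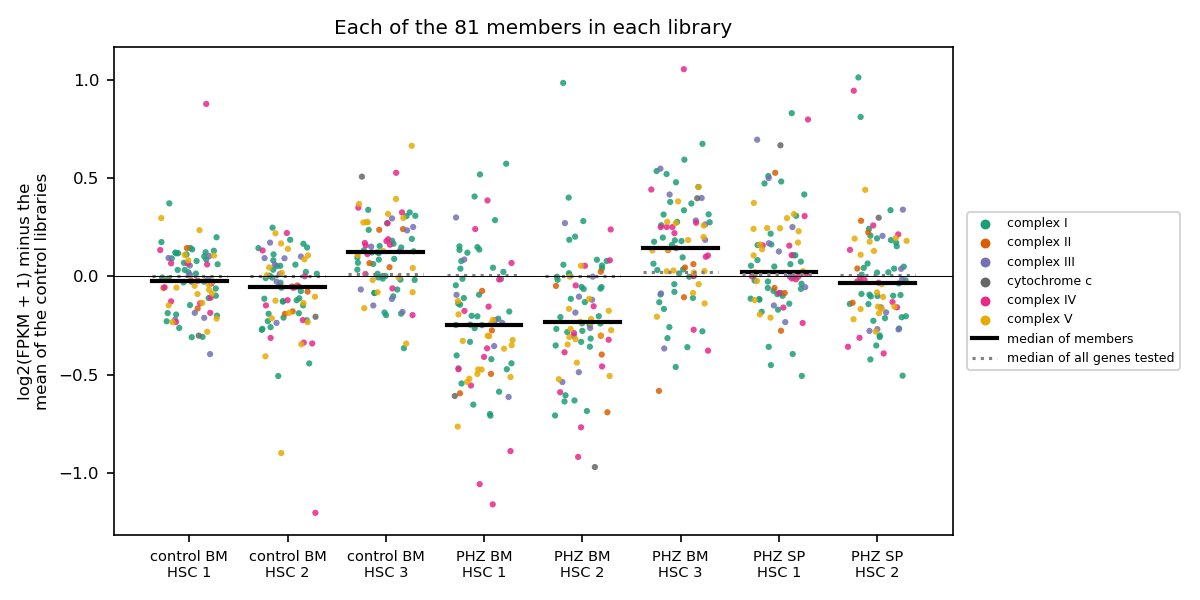
Each point is 1 of the 81 members in 1 library, as log2(FPKM + 1) minus the mean of the 3 control libraries (vertical axis), coloured by complex; black bars are the members' medians and dotted bars those of all 11347 genes tested. The medians are -0.25 and -0.23 in PHZ BM HSC replicates 1 and 2 and 0.14 in replicate 3.

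Whether PHZ changed the subunit genes within the marrow was asked by comparing PHZ BM HSCs with control BM HSCs. No member passed the threshold. With limma on log2(FPKM + 1), fitted to all 11347 genes in 8 libraries, 0 of 81 members had a Benjamini-Hochberg adjusted p below 0.05, while 168 genes (1.48%) were called higher and 143 (1.26%) lower over all genes. At an unadjusted p below 0.05, 4 members were higher (background 9.05%) and 12 lower (background 7.57%), that is 4.94% and 14.8% of the members. A voom fit on the reads called 0 members in this and both other comparisons. The median member differed by -0.12 on the log2 scale, against 0.01 for all genes tested, and 54 of 81 members had a lower mean. By complex, the median was -0.06 for I, -0.25 for II, -0.07 for III, -0.19 for IV and -0.18 for V. All 4 members of complex II and 15 of 17 of complex V had a lower mean, against 20 of 37 in complex I. Within complex I, the 7 core subunits that carry electrons had a median of 0.03. The 29 members counted as accessory subunits, with Ndufa4 among them by its name, had a median of -0.07. The smallest adjusted p of any member was 0.0657.

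The 2 marrow groups did not overlap for 17 members, of which 6 were higher in PHZ BM HSCs (7.41%, background 12.3%) and 11 lower (13.6%, background 11.7%). Those with the smallest p are described in turn, with limma's adjusted p. Ndufa4, named as a complex I gene and now known as a subunit of complex IV, was at 152, 140 and 143 FPKM in the controls and at 88.5, 89.9 and 113 FPKM in PHZ BM HSCs. The groups did not overlap, with a log2 difference of -0.58 ± 0.15 (SE; 95% interval -0.91 to -0.26; adjusted p = 0.0657). In PHZ SP HSCs it was at 136 and 102 FPKM, below every control, and the lower value lay within the range of PHZ BM HSCs. Uqcrb, a ubiquinone-binding subunit of complex III, was at 95.3, 89.4 and 81.8 FPKM in the controls and 57.6, 62.9 and 68.5 FPKM in PHZ BM HSCs. That is a difference of -0.49 ± 0.13 (adjusted p = 0.0821), again without overlap.

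Cox6b1, which lies on the outer face of complex IV near the cytochrome c site and whose promoter is given above, was at 275, 274 and 309 FPKM in the controls. In PHZ BM HSCs it was at 206, 208 and 236 FPKM, lower by -0.40 ± 0.11 as a log2 difference (adjusted p = 0.0898). Its PHZ SP HSC values, 242 and 223 FPKM, were also below every control. Cox7c, a small complex IV subunit, had the largest negative difference, -0.73 ± 0.21 (adjusted p = 0.0908), with 59.4, 43.3 and 61.3 FPKM in the controls against 25.5, 31.3 and 41.4 FPKM. RefSeq names a pseudogene after Cox7c, so its reads may be split. Sdhb, the iron-sulfur subunit of complex II, was at 63.4, 50.04 and 59.2 FPKM in the controls and 37.6, 43.2 and 37.9 FPKM in PHZ BM HSCs (-0.53 ± 0.15, adjusted p = 0.107). Replicate 3 did not stand apart for Sdhb.

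In the opposite direction, Ndufa6, an accessory subunit of complex I, was at 93.2, 72.3 and 83.2 FPKM in the controls and 119, 109 and 120 FPKM in PHZ BM HSCs (0.48 ± 0.13, adjusted p = 0.0837). Its spleen values of 110 and 104 FPKM were likewise above all controls. Uqcrh, the hinge protein between cytochrome c1 and cytochrome c, was at 170, 156 and 152 FPKM in the controls and at 196, 192 and 194 FPKM in PHZ BM HSCs (0.28 ± 0.12, adjusted p = 0.247). Cox7a2l, known for its part in joining complex III and complex IV into supercomplexes, was at 129, 135 and 108 FPKM in the controls and 162, 146 and 147 FPKM in PHZ BM HSCs (0.29 ± 0.13, adjusted p = 0.285). Cox5b had 49.96, 47.9 and 45.8 FPKM against 56.7, 50.7 and 65.4 FPKM (0.25 ± 0.15, adjusted p = 0.411), and Ndufs5-ps had a difference of 0.72 ± 0.32 on 36 to 104 reads (adjusted p = 0.282). All 5 were higher in each PHZ BM HSC library than in each control.

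**Figure D3:**
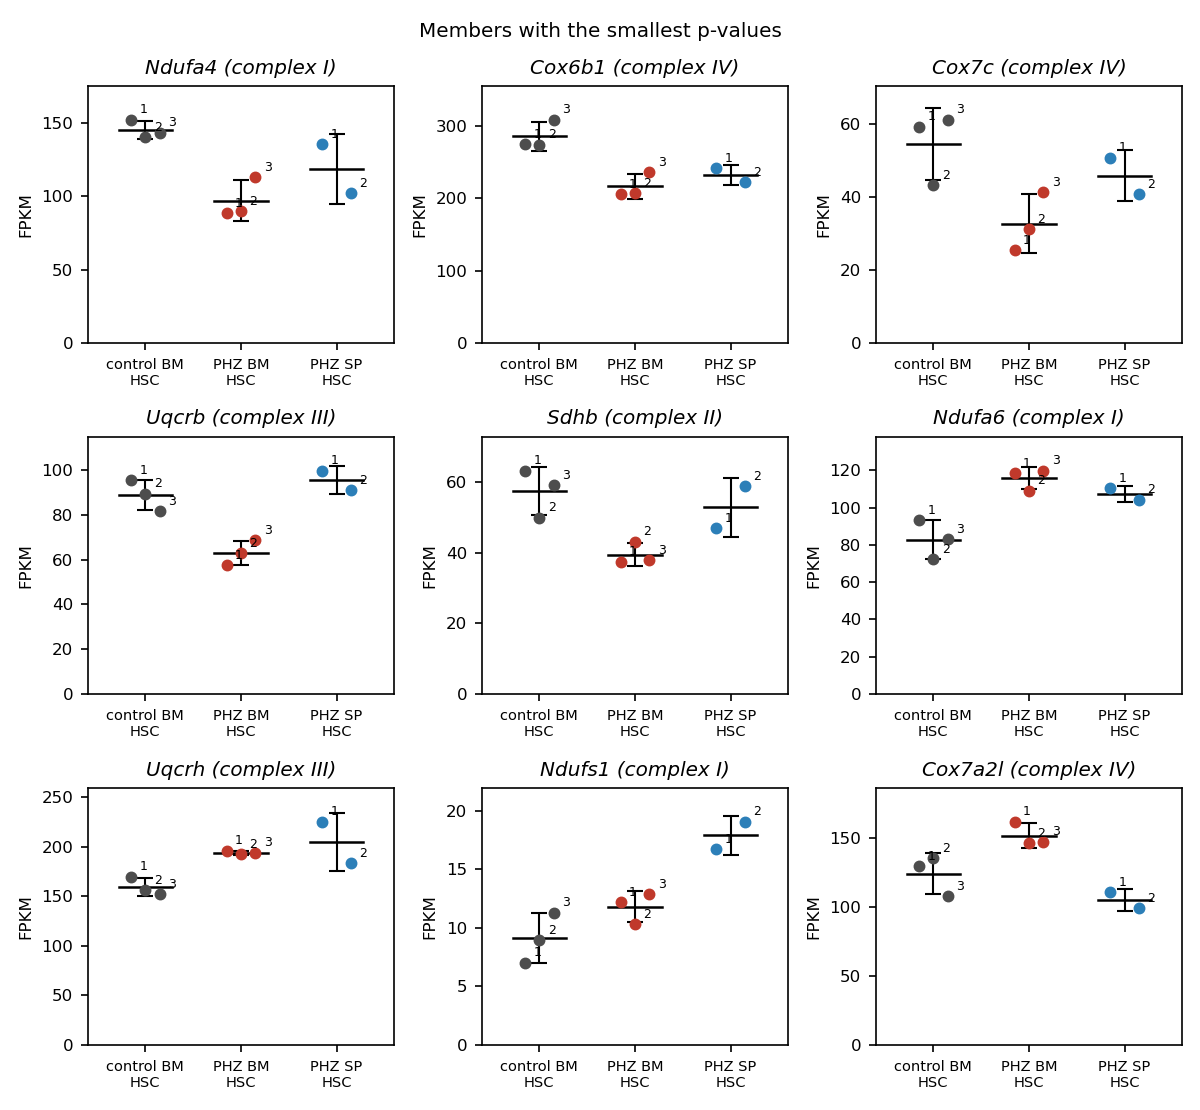
FPKM (vertical axes, from 0) of 9 members with small p-values in any comparison; points are libraries with their replicate numbers, and bars give the group mean ± SD. Ndufa4, Cox6b1, Cox7c, Uqcrb and Sdhb are lower and Ndufa6 and Uqcrh higher in all 3 PHZ BM HSC libraries than in all 3 controls, and Ndufs1 is highest in the 2 spleen libraries.

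The count of members in this comparison rested on which PHZ BM HSC library was kept. Without PHZ BM HSC replicate 3, limma called 4 members lower (Ndufa4, Cox7c, Cox6b1 and Ndufa1, adjusted p of 0.0267 to 0.0449), 24 were lower at an unadjusted p below 0.05 (7.24% of all genes tested in that fit), and the median was -0.24. That fit called 306 genes in all. Without replicate 1 or replicate 2, 0 members were called, 6 and 7 were lower at an unadjusted p below 0.05 (5.22% and 4.96% of all genes tested), and the medians were -0.03 and -0.05. With trends on length and GC content removed, 25 of 80 members were lower and 3 higher at an unadjusted p below 0.05 (7.92% and 7.56% of all genes tested), 1 was called lower (Cox6b1, among 266 of 10847 genes called), and the median was -0.20. The proliferation genes moved with these libraries. The summed level of 30 such genes was 500 to 769 FPKM in the controls and 192, 214 and 334 FPKM in PHZ BM HSC replicates 1, 2 and 3, and 18 of the 30 were called lower (among them Ube2c, Top2a, Rrm2, Mki67 and Rrm1). The sum of 6 megakaryocyte markers was lower too, at 114 to 135 FPKM in the controls and 82.1 to 101 FPKM in PHZ BM HSCs, and limma called 2 of the 5 tested lower and voom 0 (Pf4, from 69.1 ± 7.67 to 32.6 ± 3.15 FPKM, and Ppbp). The markers did not all differ the same way: Gp9 overlapped between the groups and Itga2b had the higher mean in PHZ BM HSCs (25.04 against 15.6 FPKM, not called). The part of either list in the members' values was not tested. In bulk samples, fewer cells of a type and less RNA per cell cannot be told apart.

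PHZ SP HSCs were then set against control BM HSCs. The members lay close to the controls at the median. The median member differed by 0.00, against -0.00 for all genes tested, 42 members had a higher and 39 a lower mean, and the medians of complexes I to V lay between -0.03 and 0.06. No member was called, while 71 genes (0.626%) were called higher and 15 (0.132%) lower. At an unadjusted p below 0.05, 4 members were higher (background 8.65%) and 1 lower (background 7.14%), shares of 4.94% and 1.23%. The median size of the difference, whichever its sign, was 0.11 for members and 0.30 for all genes tested. The spread was smaller too, as the residual SD within groups was 0.205 for the median member and 0.312 for the median gene. The 2 sets were not matched for level (medians of 57.1 and 5.004 FPKM), and the part of level was not tested. At an unadjusted p below 0.05, upper-quartile scaling gave 2 members higher and 5 lower (6.45% and 9.50% of all genes tested). With trends on length and GC content removed, 1 of 80 was higher and 5 lower (8.56% and 7.39%).

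Ndufs1, the largest core subunit of complex I, had the greatest difference in this comparison. It was at 7.04, 8.98 and 11.3 FPKM in the controls, 12.2, 10.3 and 12.9 FPKM in PHZ BM HSCs, and 16.7 and 19.1 FPKM in PHZ SP HSCs. Both spleen libraries were thus above all marrow libraries, with a log2 difference from the controls of 0.92 ± 0.23 (95% interval 0.41 to 1.43, adjusted p = 0.0935). Uqcrfs1, the Rieske iron-sulfur protein of complex III, was at 42.5, 51.4 and 54.9 FPKM in the controls and 80.5 and 62.7 FPKM in PHZ SP HSCs (0.52 ± 0.20, adjusted p = 0.249). Uqcrh, at 226 and 184 FPKM in the spleen, differed from the controls by 0.35 ± 0.13 (adjusted p = 0.224). For Ndufa6 the difference was 0.38 ± 0.15 (adjusted p = 0.244).

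The lower side held smaller differences. Cox6b1 differed by -0.30 ± 0.13 (adjusted p = 0.281), Ndufa4 by -0.30 ± 0.17 (adjusted p = 0.401) and Uqcrc1, a core protein of complex III, by -0.25 ± 0.16 (adjusted p = 0.472). The spleen libraries were below all controls for these 3 genes. For the comparisons with the spleen, the share of all genes tested that separated in this way was not worked out. With fewer libraries than between the marrow groups, such separation arises more readily by chance. Separations of the spleen libraries are therefore given without a background, here and for the other members named. Ndufa13 (-0.36 ± 0.17) and Cox7a2l (-0.24 ± 0.14) overlapped with the controls.

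Markers of other cells also moved with the spleen group, and a gate on lineage antibodies had been used for the sort. The 8 erythroid markers listed in the tables summed to 1013 and 1156 FPKM in the 2 spleen libraries, against 129 to 293 FPKM in the controls and 181 to 341 FPKM in PHZ BM HSCs. In the spleen that sum was mostly Hba-a1 (291 and 357 FPKM) and Hbb-bt (579 and 731 FPKM). Of the 8, limma called 5 higher than in the controls. The 7 neutrophil markers summed to 1210 and 1510 FPKM, against 293 to 561 and 313 to 771 FPKM. This was mostly S100a8 (587 and 786 FPKM in the spleen) and S100a9 (535 and 627 FPKM). Of the 7, limma called 1 (S100a8). Elane, at 7.725 and 6.739 FPKM, overlapped with both marrow groups, and Mpo, at 2.87 and 3.09 FPKM, with PHZ BM HSCs. Of the 2 T and NK cell markers tested, Klrb1c was called higher in the spleen than in either marrow group, at 14.7 and 18.4 FPKM against 0.947 ± 0.423 FPKM in the controls and 2.58 ± 0.428 FPKM in PHZ BM HSCs, whereas the sum of that list, at most 61.1 FPKM, overlapped between groups and was mostly Nkg7, and Cd3d was at 0 in every control library. All 3 B cell markers tested had higher means in the spleen than in the controls, with a median log2 difference of 1.19 and 2 of 3 at an unadjusted p below 0.05, and limma called 0 of them (Cd79a was at 5.03 and 3.03 FPKM, against 0.228 to 1.55 FPKM in the controls). Macrophage markers summed to at most 8.87 FPKM in any library, and the megakaryocyte sums of 87.8 and 141 FPKM in the spleen spanned those of the controls. The part of these markers in the members' values was not tested.

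The last comparison, PHZ SP HSCs with PHZ BM HSCs, asked how HSCs of the anemic spleen and marrow differ. It shares its marrow libraries with the first, and its spleen libraries with the second, comparison. No member was called, while 69 genes (0.608%) were called higher in the spleen and 42 (0.37%) lower. At an unadjusted p below 0.05, 5 members were higher (background 7.02%) and 4 lower (background 6.47%), shares of 6.17% and 4.94%. The median member was higher by 0.19, against -0.02 for all genes tested, and 53 of 81 had a higher mean. The medians were 0.05 for complex I, 0.36 for II, -0.01 for III, 0.17 for IV and 0.25 for V. All 4 members of complex II and 15 of 17 of complex V had a higher mean, the latter including all 4 of the peripheral stalk and all 3 of the c-ring. Without PHZ BM HSC replicate 3 the members' median was 0.31 and 24 members were higher at an unadjusted p below 0.05 (7.49% of all genes tested), whereas without replicate 1 or 2 the medians were 0.10 and 0.14, with 1 and 3 such members (4.62% and 4.64% of all genes tested).

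Uqcrb had the smallest p on the higher side. Its spleen values of 99.7 and 91.1 FPKM were above all 3 PHZ BM HSC values given above (0.59 ± 0.15; 95% interval 0.27 to 0.92; adjusted p = 0.0896). Ndufb5, an accessory subunit of the membrane arm of complex I, was at 37.8 and 43.9 FPKM against 24.1, 31.5 and 32.0 FPKM (0.48 ± 0.18, adjusted p = 0.286). Ndufs1 (0.56 ± 0.23, adjusted p = 0.32), Sdhb (0.41 ± 0.17, adjusted p = 0.335) and Ndufv2, a core subunit of complex I (0.45 ± 0.20, adjusted p = 0.35), were also above in both spleen libraries.

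On the lower side, Cox7a2l was at 111 and 99.3 FPKM in the spleen, below the 146 to 162 FPKM of PHZ BM HSCs (-0.53 ± 0.14; 95% interval -0.85 to -0.21; adjusted p = 0.128). Ndufa13 was at 51.3 and 58.5 FPKM against 72.4, 70.4 and 78.8 FPKM (-0.42 ± 0.17, adjusted p = 0.301). The complex I subunits Ndufs6 (-0.52 ± 0.22, adjusted p = 0.332) and Ndufa7 (-0.41 ± 0.17, adjusted p = 0.338) were lower in both spleen libraries as well. For Ndufs5-ps the spleen libraries were far apart, at 3.22 and 9.52 FPKM, and its difference of -0.56 ± 0.35 was 0.0939 without PHZ SP HSC replicate 1.

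**Figure D4:**
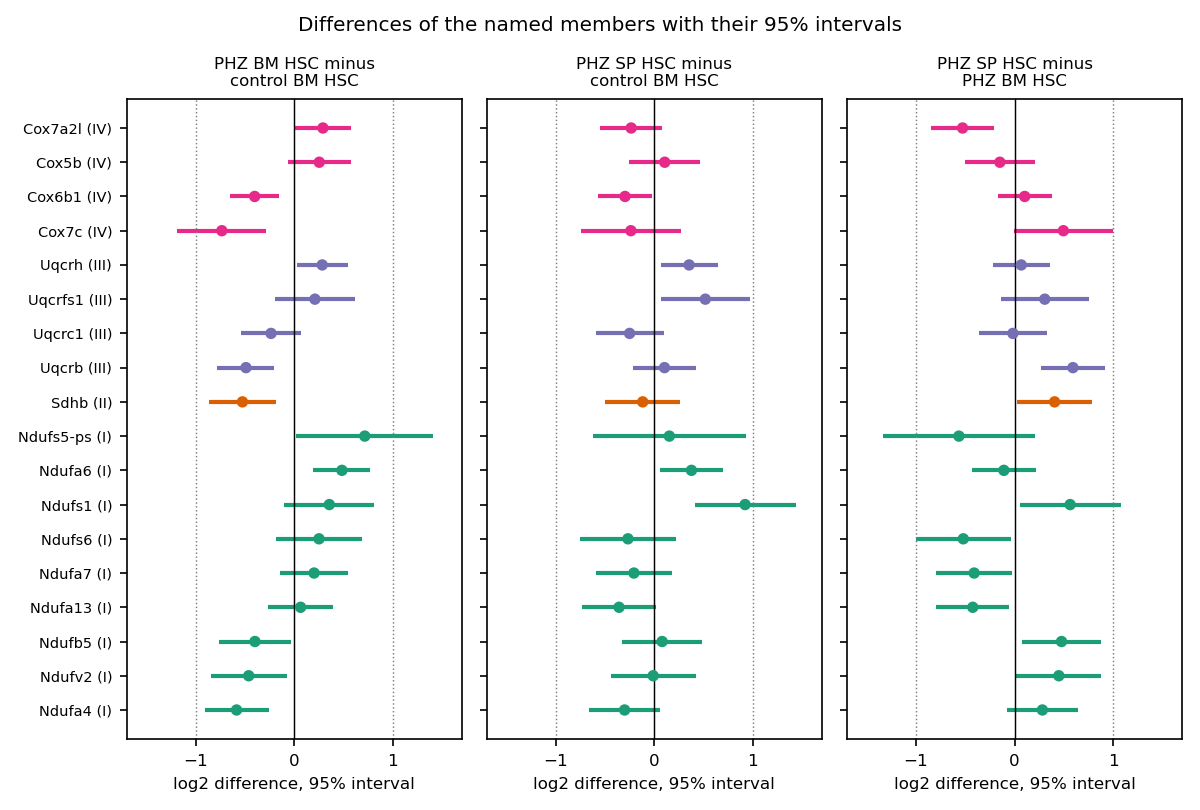
Log2 differences of 18 members with small p-values in any comparison (horizontal axes), as points with 95% intervals from limma, not adjusted for the number of members; colours mark the complex given in brackets, and dotted lines mark a 2-fold difference. Ndufs1 differs by 0.92 (0.41 to 1.43) between PHZ SP and control BM HSCs.

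The remaining subunits named by role were as follows. Sdha, the flavoprotein of complex II, held 58.1 to 74.6 FPKM over the 8 libraries, and its differences were -0.03 ± 0.14, 0.11 ± 0.15 and 0.14 ± 0.15 in the order of the comparisons above. The membrane anchors Sdhc and Sdhd differed from the controls by -0.06 ± 0.18 and -0.43 ± 0.18 in PHZ BM HSCs and by 0.38 ± 0.20 and -0.11 ± 0.20 in PHZ SP HSCs. Cyc1, cytochrome c1, was at 34.9 to 56.9 FPKM in the controls, 42.5 to 51.2 FPKM in PHZ BM HSCs and 40.6 to 50.6 FPKM in PHZ SP HSCs, with differences of -0.02, -0.03 and -0.01.

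Cycs, the mobile electron carrier that also takes part in apoptosis, was at 2.98, 3.25 and 5.96 FPKM in the controls, 2.21, 1.501 and 5.45 FPKM in PHZ BM HSCs and 6.78 and 5.03 FPKM in PHZ SP HSCs. It rested on 48 to 261 reads, and RefSeq names 3 pseudogenes after it. The groups overlapped, and the difference between spleen and PHZ marrow of 0.88 ± 0.40 had a 95% interval of -0.00 to 1.76. Cox4i2 was more variable than Cycs, at 8.57, 1.26 and 5.53 FPKM in the controls alone (SD 3.67, against 1.65 for Cycs).

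How large a change these libraries left possible can be read from the intervals. The 95% interval of the difference lay within a 2-fold change, up or down, for 76 of 81 members between PHZ BM and control BM HSCs, for 77 between PHZ SP and control BM HSCs, and for 73 between PHZ SP and PHZ BM HSCs. Among all genes tested, which were not matched to the members for level, this held for 7243, 6009 and 6389 of 11347. Cox4i2, Atp5md and Cycs reached beyond 2-fold in all 3 comparisons, Ndufs5-ps, Cox7c and Ndufs1 in 2 of them, and Ndufs6 and Cox5a between spleen and PHZ marrow. Smaller changes were less well resolved for a single gene, as the median SE of a member's difference was 0.17 to 0.19 on the log2 scale. A p above the threshold does not show that 2 groups were alike.

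**Figure D5:**
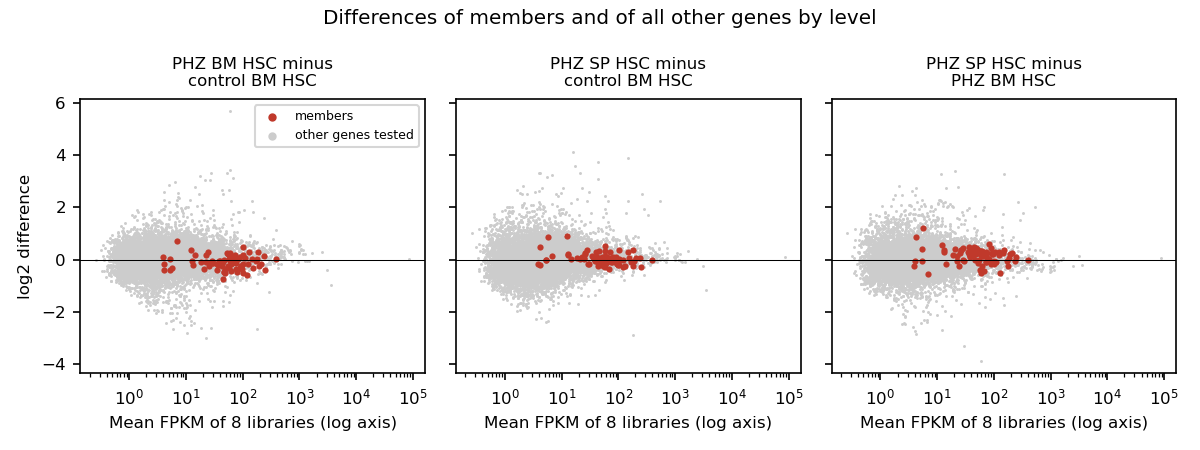
Log2 difference (vertical axes) against mean FPKM over 8 libraries (log axes) for the 81 members in red and the other tested genes in grey, for the 3 comparisons. The members lie among the more highly expressed genes, and their median differences are -0.12, 0.00 and 0.19.

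Other genes of the pathway, taken from lists, were tested in the same fit, and the shares called among all genes are those given above. Of 45 assembly factors tested, 17 enzymes of the tricarboxylic acid cycle and pyruvate dehydrogenase, 8 carriers and channels, 14 regulators of mitochondrial biogenesis and 77 mitochondrial ribosomal proteins, limma called 0 in any comparison. The voom fit called 0 of them as well. At an unadjusted p below 0.05, the mitochondrial ribosomal proteins had 3 higher and 6 lower between the marrow groups, 1 and 1 between spleen and control, and 3 and 1 between spleen and PHZ marrow. In the same order, the assembly factors had 2 and 1, 1 and 3, and 2 and 2. The regulators had 1 and 0, 2 and 1, and 2 and 3. The cycle enzymes had 0 and 1, 1 and 0, and 0 and 0. The list of carriers and channels had 0 and 1, 0 and 0, and 2 and 0. The medians of the carriers and channels were -0.15, 0.12 and 0.26, those of the ribosomal proteins -0.05, 0.09 and 0.11, and those of the cycle enzymes -0.01, 0.15 and 0.22, beside -0.12, 0.00 and 0.19 for the members. The assembly factors, which build the complexes but are not part of them, had medians of 0.02, -0.01 and -0.02. The regulators had medians of 0.13, 0.07 and -0.11.

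Other lists held called genes. Proliferation genes were lower in PHZ BM HSCs (18 of 30 called) and higher in PHZ SP HSCs than in PHZ BM HSCs (8 of 30, led by Rrm2, Ccna2, Ube2c, Plk1 and Tpx2, and 5 of 30 with voom), with 0 called between spleen and control, where 1 was higher and 2 were lower at an unadjusted p below 0.05 and voom called 0. Rrm2, a subunit of ribonucleotide reductase, was at 15.8 ± 4.45, 3.37 ± 0.756 and 29.3 ± 11.7 FPKM (SD) in control BM, PHZ BM and PHZ SP HSCs. Of 14 immediate early genes tested, 11 were called higher in PHZ BM HSCs and 4 in PHZ SP HSCs than in the controls. Fos, a transcription factor subunit that cells switch on within minutes, went from 2.04 ± 0.923 to 151 ± 10.6 FPKM in the marrow (log2 difference 5.69 ± 0.29, adjusted p = 4.25e-06) and was at 9.95 ± 5.46 FPKM in the spleen. Zfp36, Junb, Jun and Ier2 followed by p between the marrow groups. In the same libraries the largest difference of any member, whichever its sign, was 0.73 between the marrow groups, 0.92 between spleen and control marrow and 1.21 between spleen and PHZ marrow, the last for Cox4i2 (adjusted p = 0.462).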

How the data were processed

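RNA of sorted HSCs had been amplified with a SMART-Seq2 kit and made into libraries with Nextera XT, without molecular identifiers. The submitters' processing notes name STAR, mm10 and DESeq2. The counter, its annotation and its strand setting are not given in the sources used here. The authors deposited 1 table of FPKM values per group, with 15735, 16136 and 16136 genes. The control table and the pair of PHZ tables had been scaled separately, each by median-of-ratios factors. Whole reads were worked back from the deposited FPKM values: 108151 of 108151 values above 0 came out whole within 0.01 reads. These give the depths. A further pair of deposited tables of the authors' own comparisons (log2 fold changes and p-values) were not used.

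FPKM values were rescaled by median-of-ratios factors over the 8 libraries, a shift of at most 1.05% in any of them. Genes of all 3 tables with at least 1 FPKM in at least 2 libraries (11347) entered limma 3.58.1 (R 4.3.3) on log2(FPKM + 1), with group as the factor, all 8 libraries in 1 fit, moderated variances with trend and robust, two-sided tests and Benjamini-Hochberg adjustment over all genes tested at 0.05. Differences are on that scale, which understates those of low genes. The authors used DESeq2 on counts, and limma takes its place here because the deposited unit is FPKM. The fit was tested on simulated data. Alternatives were a pseudocount of 0.1, no filter, the 2 groups alone, the replicate block, other scalings, removal of trends on length and GC content, voom on reads, and leaving out each library. Across all genes tested, same-numbered libraries of different groups deviated together with r of -0.01 to 0.06, so the numbers were not taken as pairs. Among the members, replicate 3 had the highest median in both marrow groups, 0.12 and 0.14 above the control mean. Fits with the replicate number as a block are given below.

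The members and lists were chosen with earlier results of these data known. Named were the 5 members with the smallest p in each direction of each comparison, the 3 highest and the lowest member of each complex, Cycs, Cyc1, Uqcrfs1, the Sdh genes, alternative forms of a subunit, and at most 5 called genes of another list per comparison. Members named outside this rule (low members, genes with copies, wide intervals, Ndufa1) were chosen after their values were seen. All 81 members matched RefSeq gene IDs. Promoter windows are from RefSeq (GRCm38.p6). A member that the naming rule selects is not reported here.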

Additional observations from a re-analysis of the deposited data

How the results depend on the processing

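There were 10 alternative fits and 8 fits without 1 library, each with 3 comparisons. In 5 of these 54 cases the count of members called, 0 in each comparison above, changed. For PHZ BM against control BM HSCs it was 3 with upper-quartile scaling (Ndufa4, Cox6b1 and Uqcrb, among 331 of 11347 genes called), 1 with the trends on length and GC content removed (Cox6b1, among 266 of 10847), and 0 to 4 when each library was left out, the 4 without PHZ BM HSC replicate 3. With the replicate block and the trends removed it was 1 (Cox6b1, among 251) for that comparison and 1 (Cox7a2l, among 114) for PHZ SP against PHZ BM HSCs. In all of these the called members were lower, and the causes were not tested. The replicate block alone called 0 members and gave medians of -0.12, 0.09 and 0.25. At an unadjusted p below 0.05 the block gave, in the order of the report, 4 members higher and 14 lower (9.32% and 7.61% of all genes tested), 10 and 0 (9.36% and 7.13%), and 17 and 2 (7.32% and 6.13%). With the trends also removed these were 3 and 24 (7.60% and 8.002%), 4 and 4 (9.10% and 7.36%), and 12 and 3 (6.99% and 5.27%). Of 21 pairs of libraries of different groups, no pair shared deviations above r = 0.07. The members' median ran over all alternatives from -0.24 to -0.03 for PHZ BM against control, from -0.09 to 0.09, and so without a stable sign, for PHZ SP against control, and from 0.10 to 0.31 for PHZ SP against PHZ BM HSCs. Counting PHZ BM HSC replicates 1 and 2 as 1 sample, an alternative chosen after seeing the data, gave 0 members called and medians of -0.03, 0.00 and 0.12. For the 30 differences of single members named by p, 1 of 240 values with a library left out changed sign, that of Ndufs5-ps between PHZ SP and PHZ BM HSCs, which was 0.0939 with only the second spleen library kept and -1.22 with only the first, and 0 of 296 other values did. With a library left out 3 of them, and otherwise 6, passed the threshold. The counts over all genes, 311, 86 and 111 in the order of the report, were 205, 46 and 62 without the filter, 272, 39 and 108 with a pseudocount of 0.1, 276, 44 and 157 with the 2 groups alone, and 259, 74 and 65 with voom. Leaving out a marrow library gave 114 (PHZ BM HSC replicate 2) to 306, 33 (PHZ BM HSC replicate 2) to 83 and 20 (PHZ BM HSC replicate 1) to 148. Leaving out a spleen library keeps 1 library in that group, so the spread then comes from the marrow groups only.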
